A study of Homo sapiens with 6 samples.

Results

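The genes described here are those by which a cell takes up, activates, inactivates, holds and reads thyroid hormone: the receptors THRA and THRB, the deiodinases DIO2 and DIO3, the transporter SLC16A10, the corepressor NCOR1, the cytosolic binding protein CRYM and the hormone-responsive gene THRSP. They were chosen by symbol, 8 of the 38557 genes listed in the count files, and all 8 were listed. Messenger RNA was sequenced from cardiomyocytes differentiated from the wild-type line WTC11, a widely used line of human induced pluripotent stem cells. Of the 6 cultures, 3 were kept in RPMI to which the serum-free supplement B27 was added, and 3 in DMEM with added fatty acids, with replicates numbered 1 to 3 in each medium. The labels give no age of the cells, no time in the medium and no composition of either medium, and all 6 libraries come from 1 cell line. The comparison asks which of these genes differ between the media. Base medium and supplement change together and cannot be told apart.

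Thyroid hormone leaves the gland mostly as the prohormone thyroxine, enters cells through membrane carriers, and is converted by deiodinases either to the active form, triiodothyronine, or to inactive products. Triiodothyronine binds nuclear receptors that sit on DNA together with retinoid X receptors. Without hormone these receptors hold corepressor complexes on many of their targets, and with hormone they exchange them for coactivators. In the heart, the hormone is known for acting on the genes of alpha and beta myosin heavy chain and for setting heart rate and calcium uptake. B27 as commonly formulated contains triiodothyronine. Whether the DMEM medium held the hormone is not given in the labels, so no difference below can be tied to it.

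THRA and NCOR1 were abundant, CRYM and SLC16A10 were present at lower levels, THRB and DIO2 were at the edge of detection, and DIO3 and THRSP were too low to read. Of the 8 genes, 5 had enough counts to be tested (THRA, THRB, NCOR1, SLC16A10 and CRYM), and 0 of the 5 passed an adjusted p of 0.05 when the media were compared (quasi-likelihood test of edgeR, with Benjamini-Hochberg adjustment over all 16107 genes tested). The same rule called 1.36% of all genes tested, 0.292% as higher and 1.07% as lower in DMEM. THRA alone had an unadjusted p under 0.05, as did 17.7% of all genes tested. With the replicate number as a block the count was again 0 of 5, where 4.78% of all genes were called (1.36% higher and 3.42% lower). DESeq2's Wald test called 0 of 5 as well, where it called 1212 of all 16107 genes tested.

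The starts of 3 of these genes are shown because they span the range from the most abundant receptor to the deiodinase read in few libraries. Each window runs from 250 bases before to 50 bases after a transcript start in RefSeq (GRCh38.p14), read 5′ to 3′ on the gene's own strand. Capitals mark every match, on either strand, of the GC box GGGCGG, the cyclic AMP response element TGACGTCA and the TATA motif TATAAA. Neighbouring GC boxes overlap where the capitals run on.

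THRA, chr17:40062715-40063014, plus strand: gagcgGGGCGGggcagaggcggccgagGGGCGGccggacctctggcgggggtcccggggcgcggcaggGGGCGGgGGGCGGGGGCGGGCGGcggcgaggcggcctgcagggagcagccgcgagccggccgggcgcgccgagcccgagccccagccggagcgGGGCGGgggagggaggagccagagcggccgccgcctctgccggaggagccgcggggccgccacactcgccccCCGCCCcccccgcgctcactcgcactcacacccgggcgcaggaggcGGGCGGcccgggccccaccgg

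THRB, chr3:24495659-24495958, minus strand: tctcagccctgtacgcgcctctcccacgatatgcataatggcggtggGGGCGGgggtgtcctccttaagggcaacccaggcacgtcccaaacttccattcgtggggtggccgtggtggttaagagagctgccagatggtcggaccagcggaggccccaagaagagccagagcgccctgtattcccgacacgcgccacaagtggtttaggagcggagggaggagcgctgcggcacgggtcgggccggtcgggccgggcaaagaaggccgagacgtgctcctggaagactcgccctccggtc

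DIO2, chr14:80212129-80212428, minus strand: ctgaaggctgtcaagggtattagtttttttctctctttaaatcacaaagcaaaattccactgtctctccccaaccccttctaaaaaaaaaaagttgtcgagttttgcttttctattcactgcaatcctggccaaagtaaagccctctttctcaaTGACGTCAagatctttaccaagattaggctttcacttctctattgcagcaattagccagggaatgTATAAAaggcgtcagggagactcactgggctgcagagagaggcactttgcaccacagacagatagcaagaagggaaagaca

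The THRA window was 86.3% G or C and held 9 GC boxes, some of them overlapping, with no TATA motif. The THRB window was 65.7% G or C and held 1 GC box. It is 1 of 2 THRB starts in the table, and the window of the other held 3 GC boxes and a TATA motif 182 bases before the start. The DIO2 window was 42.3% G or C, with a cyclic AMP response element that began 96 bases before the start and a TATA motif 31 bases before it. It too is 1 of 2 listed starts, and the other held none of these motifs. Among 35116 promoter windows of the same length, 44.95% held a GC box, 1.85% the cyclic AMP response element and 11.5% the TATA motif. The core of the thyroid hormone response element, AGGTCA on either strand, was found in 13.8% of all windows and in 1 of the 10 windows available for 7 of the 8 genes, that of SLC16A10. CRYM had no window. These matches describe letters only.

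THRA encodes thyroid hormone receptor alpha, the main receptor of heart muscle, and its transcripts include a splice form whose product does not bind the hormone. The gene counts do not separate the splice forms. THRA (ENSG00000126351.12, chr17:40058290-40093867, plus strand, GENCODE release 29) had 92.9, 100.8 and 90.3 CPM in RPMI plus B27 replicates 1 to 3, where CPM stands for counts scaled to the size of the library with TMM factors. It had 114.1, 115.2 and 117.9 CPM in DMEM plus fatty acids. All 3 DMEM libraries were above all 3 RPMI libraries, as was the case for 12.8% of all genes tested. The mean went from 94.7 ± 5.46 to 115.8 ± 1.93 CPM (SD, n = 3 each), a log2 fold change of 0.29 ± 0.10 (SE) with an adjusted p of 0.20 by edgeR, so it did not pass. The 95% interval of the fold ran from 1.04 to 1.44. THRA was higher in DMEM in all 3 pairs of equal replicate number, by 0.30, 0.19 and 0.38 on the log2 scale. At its end THRA lies over NR1D1, a circadian repressor gene on the other strand, and the exons share 263 bases (3.78% of the THRA exons). NR1D1 itself had a log2 fold change of -0.33 ± 0.38 (edgeR adjusted p 0.696). The strand setting of the counting is not given, so reads of the shared stretch may have gone to neither gene.

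THRB encodes thyroid hormone receptor beta, the form best known in liver, pituitary and the inner ear. THRB (ENSG00000151090.18, chr3:24117153-24495756, minus strand) had 27, 19 and 17 counts in RPMI plus B27 and 7, 22 and 27 in DMEM plus fatty acids, out of 23232324 to 31035389 gene counts per library. In CPM these were 1.02, 0.808 and 0.633 against 0.301, 0.735 and 0.80. The media overlapped, and DMEM plus fatty acids replicate 1 was the lowest library. The log2 fold change was -0.40 ± 0.43 (SE) with an edgeR adjusted p of 0.678. The 95% interval of the fold, 0.375 to 1.54, was the widest but for that of CRYM among the 5 genes. Without DMEM plus fatty acids replicate 1 the log2 fold change was -0.10.

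Set per length of exon, THRA stood far above THRB in every library. Counts per kilobase of THRA were 144 times those of THRB in RPMI plus B27 replicate 1, 197 times in replicate 2 and 225 times in replicate 3, and 597, 247 and 232 times in DMEM plus fatty acids replicates 1 to 3. The lengths are the joined exons of GENCODE release 29, which may not be the authors' annotation, and for THRB rest on few reads. THRB took 1.08%, 0.795% and 0.696% of the counts of both receptors in RPMI plus B27, against 0.263%, 0.634% and 0.674% in DMEM plus fatty acids. The share was thus lower in each DMEM library, with means of 0.858% ± 0.20 and 0.524% ± 0.226 (SD, n = 3 each). A two-sided exact permutation test gave p = 0.1, the smallest that 3 libraries against 3 allow. The 95% Wilson interval was 0.744% to 1.57% in RPMI plus B27 replicate 1 and 0.128% to 0.542% in DMEM plus fatty acids replicate 1. Every other pair of libraries had overlapping intervals. Leaving out 1 library gave differences of -0.41 to -0.20 percentage points. The intervals cover counting error within a library only, not the spread between libraries. Reads carry no molecular identifiers, so even the counting error may be understated.

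**Figure D1:**
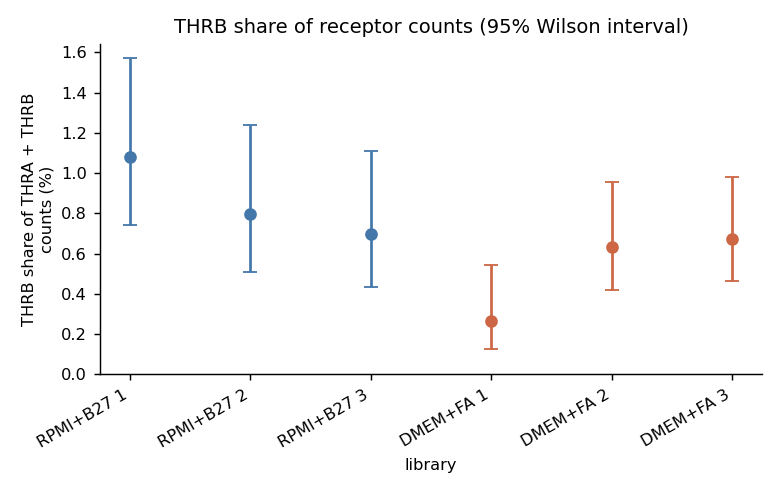
THRB as a percentage of THRA plus THRB counts (y axis) in each library (x axis, RPMI plus B27 in blue, DMEM plus fatty acids in orange), with 95% Wilson intervals as bars. The 3 RPMI libraries lie between 0.696% and 1.08% and the 3 DMEM libraries between 0.263% and 0.674%, and the intervals overlap except between the first library of each medium.

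The retinoid X receptors, which pair with both thyroid hormone receptors, were all tested, and 0 of 3 passed. RXRG, the form found mainly in striated muscle, had 41.0, 32.6 and 64.6 CPM in RPMI plus B27 and 13.5, 25.6 and 30.1 CPM in DMEM plus fatty acids. Its media did not overlap, and 12.8% of all genes tested were likewise lower in every DMEM library. The log2 fold change was -1.0 ± 0.35 (SE) with an edgeR adjusted p of 0.203 (0.0708 with the replicate block). RXRA had 0.33 ± 0.15 (adjusted p 0.308) and RXRB -0.06 ± 0.13 (adjusted p 0.834), the latter with the other sign, 0.04, when libraries were scaled by total counts.

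NCOR1 encodes the scaffold of the corepressor complex that unliganded receptors recruit. NCOR1 (ENSG00000141027.20, chr17:16029157-16218185, minus strand) had 126.0, 134.6 and 163.7 CPM in RPMI plus B27 and 155.8, 155.7 and 140.3 CPM in DMEM plus fatty acids. The media overlapped, and the highest library of all was RPMI plus B27 replicate 3. The means were 141.5 ± 19.8 and 150.6 ± 8.95 CPM (SD, n = 3 each), with a log2 fold change of 0.09 ± 0.13 (SE) and an edgeR adjusted p of 0.769. The 95% interval of the fold, 0.858 to 1.32, bounds any change of NCOR1 more tightly than that of THRB, CRYM or SLC16A10. NCOR1 was higher in DMEM in the pairs of replicates 1 and 2 (0.31 and 0.21 on the log2 scale) and lower in that of replicate 3 (-0.22).

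Of 4 other subunits of this complex, the histone deacetylase HDAC3, TBL1X, TBL1XR1 and GPS2, all were tested and 0 passed. Their median log2 fold change was -0.084, where that of all genes tested was 0.01. GPS2 had the smallest p, with 27.2, 36.8 and 39.0 CPM in RPMI plus B27 and 50.8, 45.8 and 47.0 CPM in DMEM plus fatty acids (log2 fold change 0.48 ± 0.16, SE, edgeR adjusted p 0.186). TBL1XR1 had -0.29 ± 0.14 (adjusted p 0.332) and HDAC3 -0.17 ± 0.13 (adjusted p 0.559). Of the 8 coactivator genes 0 passed, and their median was 0.16. Those with the smallest p were NCOA1 (0.46 ± 0.18, adjusted p 0.239), NCOA2 (0.36 ± 0.16, adjusted p 0.287) and NCOA3 (-0.24 ± 0.14, adjusted p 0.421), members of the p160 family that liganded receptors bind.

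**Figure D2:**
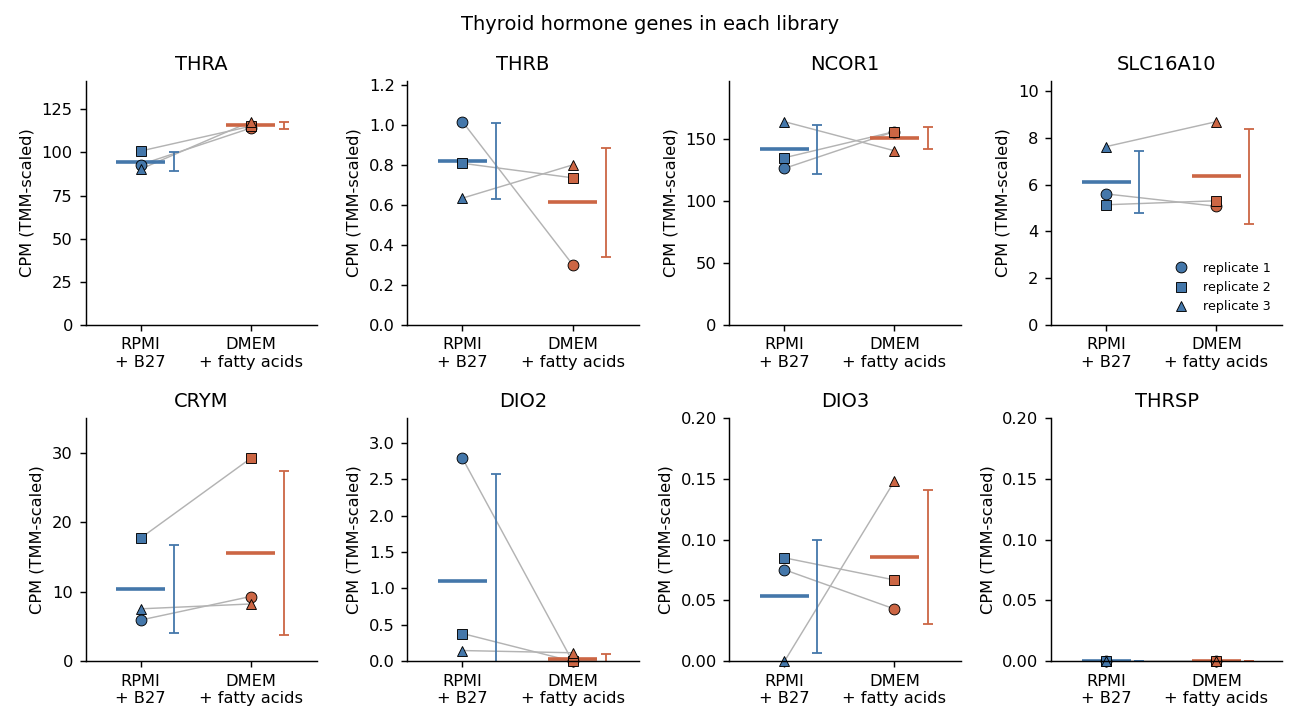
TMM-scaled CPM (y axis, own scale in each panel) of the 8 genes in RPMI plus B27 (blue) and DMEM plus fatty acids (orange), with symbols for replicate numbers, grey lines joining equal numbers, thick bars for the mean and thin bars for the SD of 3 libraries. The media separate for THRA (90.3 to 100.8 against 114.1 to 117.9 CPM) and narrowly for DIO2, whose RPMI mean rests on 1 library at 2.79 CPM, and overlap for THRB, NCOR1, SLC16A10, CRYM and DIO3, while THRSP is at 0 throughout.

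SLC16A10 encodes MCT10, a carrier of aromatic amino acids that also moves thyroid hormone across the membrane. SLC16A10 (ENSG00000112394.16, chr6:111087503-111231194, plus strand) had 5.61, 5.14 and 7.64 CPM in RPMI plus B27 and 5.08, 5.31 and 8.71 CPM in DMEM plus fatty acids. Replicate 3 was the highest library of each medium, and the media overlapped. The log2 fold change was 0.06 ± 0.29 (SE) with an edgeR adjusted p of 0.939 and a 95% interval of -0.62 to 0.74. Its sign changed when RPMI plus B27 replicate 1 or 2 or DMEM plus fatty acids replicate 3 was left out (-0.01, -0.06 and -0.23).

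Among other carriers, SLC7A8 rose in DMEM plus fatty acids. Of 8 listed, 3 had enough counts for a test, 1 of them rose and 0 fell. Of all genes tested, 0.292% were called higher and 1.07% lower. SLC7A8 encodes LAT2, an exchanger of neutral amino acids that carries thyroid hormone and works with the heavy chain SLC3A2. It had 9.30, 12.8 and 13.0 CPM in RPMI plus B27 and 34.0, 30.04 and 28.99 CPM in DMEM plus fatty acids. The 3 DMEM libraries were all more than 2 times the highest RPMI library, and 12.8% of all genes tested were higher in every DMEM library. SLC7A8 rose from 11.7 ± 2.07 to 31.01 ± 2.63 CPM (SD, n = 3 each; log2 fold change 1.41 ± 0.18, SE; edgeR adjusted p 0.0292). It kept that call in 8 of 12 alternatives and its direction in all 12, and lost the call (adjusted p 0.0828 to 0.0965) without RPMI plus B27 replicate 2 or without any 1 of the DMEM libraries.

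SLC3A2, the heavy chain shared by LAT1 and LAT2, had 41.5, 52.0 and 47.6 CPM against 152.9, 68.0 and 56.9 CPM. DMEM plus fatty acids replicate 1 stood well above the other libraries, and the gene did not pass (0.98 ± 0.36, edgeR adjusted p 0.217). This value, the median of the 3 tested carriers, was 0.41 without that library. SLC7A5 (LAT1) had -0.09 ± 0.30 (adjusted p 0.908). The remaining 5, SLCO1C1, SLCO4A1, SLCO2B1, SLC10A1 and SLC17A4, had at most 15 counts in any library. SLC7A8, SLC7A5 and SLC3A2 are amino acid carriers in the first place, and their values do not measure transport of the hormone.

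CRYM encodes mu-crystallin, a cytosolic protein that binds triiodothyronine and can hold it in the cell. CRYM (ENSG00000103316.10, chr16:21238874-21303083, minus strand) had 5.95, 17.7 and 7.56 CPM in RPMI plus B27 and 9.34, 29.2 and 8.26 CPM in DMEM plus fatty acids. Replicate 2 was by far the highest in both media, and the other 4 libraries lay between 5.95 and 9.34 CPM. The log2 fold change was 0.59 ± 0.59 (SE) with an edgeR adjusted p of 0.649. Within pairs of equal replicate number CRYM was higher in DMEM by 0.65, 0.72 and 0.13 on the log2 scale. The fit with the replicate block gave 0.50 ± 0.18 with an edgeR adjusted p of 0.164. Its unadjusted p there, 0.0308, was under 0.05, as it was for THRA and for 24.0% of all genes. Without DMEM plus fatty acids replicate 2 the sign turned (-0.24). That fit had no block and kept RPMI plus B27 replicate 2, the library of equal number, at 17.7 CPM. The ratio of the highest to the lowest library was thus larger within each medium than the fold of 1.501 between the means of the media.

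DIO2 encodes the deiodinase that makes triiodothyronine from thyroxine inside the cell, and DIO3 the one that inactivates both. DIO2 (ENSG00000211448.11, chr14:80197527-80387757, minus strand) had 74, 9 and 4 counts in RPMI plus B27 and 0, 0 and 4 in DMEM plus fatty acids. RPMI plus B27 replicate 1 held 74 of the 91 counts, at 2.79 CPM, while the other RPMI libraries were at 0.383 and 0.149 CPM and DMEM plus fatty acids replicate 3 at 0.118 CPM. DIO2 did not pass the filter on low counts, and no test was planned for such genes. An exact two-sided permutation test of its CPM, given as a description only, had p = 0.1, the smallest possible here. That value needs full separation of the media. Replicate 3 held 4 counts in both media, and only the scaling to library size set these 2 libraries apart. With no filter, the fitted log2 fold change was -4.47 ± 1.21 (SE) with an edgeR adjusted p of 0.0944. That fit too is a description only, with most counts in RPMI plus B27 replicate 1. Leaving out RPMI plus B27 replicate 3 or DMEM plus fatty acids replicate 1, 2 or 3 let DIO2 past the filter. It passed there only through the RPMI libraries, where it was high, so these fits are no test of a difference. They gave -5.01, -4.08, -3.95 and -7.85, with edgeR adjusted p values of 0.118 to 0.383. The size of these estimates depends on the prior count, because 2 DMEM libraries were at 0. Without RPMI plus B27 replicate 1 the DIO2 counts were 9 and 4 against 0, 0 and 4, which is too few to compare. Fibroblast and stromal markers, summed over 12 genes, were also highest in that library, at 8465 CPM, against 5391 and 4343 CPM in the other RPMI libraries and 735 to 1946 CPM in DMEM plus fatty acids, and 6 of the 12 fell. Their part in the DIO2 counts was not tested. In bulk RNA, fewer cells of a type and less RNA per cell cannot be told apart.

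DIO3 (ENSG00000197406.7, chr14:101561351-101563452, plus strand) had 2, 2 and 0 counts in RPMI plus B27 and 1, 2 and 5 in DMEM plus fatty acids, under 10 in every library and too low to read. Its divergent neighbour DIO3OS had 1 count in all. DIO1, the deiodinase of liver and kidney, also had 1 count in all. THRSP (ENSG00000151365.2, chr11:78063861-78068351, plus strand), a nuclear protein of fat-making tissues that thyroid hormone induces in liver, had 0 counts in all 6 libraries. A count of 0 allows up to 3 counts, or 0.0967 to 0.129 CPM depending on the library. THRSP was 1 of 11578 genes listed at 0 throughout.

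Deiodinases are selenoproteins, and the genes that build selenocysteine into proteins ranged from PSTK, at 0.431 to 1.05 CPM per kilobase over the 6 libraries, to SEPHS2, at 20.7 to 30.5. Of 6 genes on the list with DIO1, 5 were tested and 0 passed, with a median log2 fold change of 0.28. PSTK, the kinase that prepares the selenocysteine tRNA, had 2.63, 4.00 and 2.94 CPM in RPMI plus B27 and 6.45, 5.25 and 5.74 CPM in DMEM plus fatty acids. The media did not overlap, as for the 12.8% of all genes tested that were higher in every DMEM library. The log2 fold change of 0.87 ± 0.25 had an edgeR adjusted p of 0.147. DESeq2's Wald test did call PSTK (adjusted p 0.0253), as it did 1212 of all 16107 genes tested. By edgeR, SECISBP2 had 0.51 ± 0.19 (adjusted p 0.218) and SEPHS2 0.27 ± 0.13 (adjusted p 0.323). Genes that set the lifetime of the DIO2 protein (WSB1, USP20, USP33 and MARCHF6) gave 0 of 4 calls, with the smallest p for USP33, a deubiquitinase (0.33 ± 0.11, adjusted p 0.199).

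**Figure D3:**
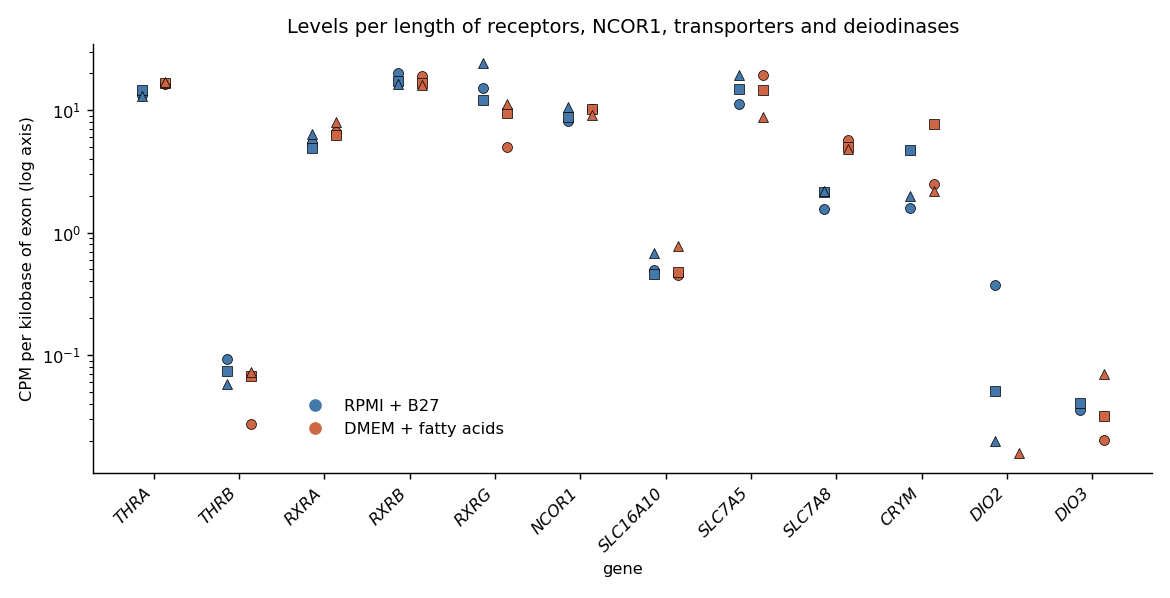
TMM-scaled CPM per kilobase of exon (log axis) of receptors, retinoid X receptors, NCOR1, carriers, CRYM and deiodinases (x axis) in each library, RPMI plus B27 in blue and DMEM plus fatty acids in orange, with a circle, square and triangle for replicates 1, 2 and 3. Libraries at 0 are not drawn, which leaves out 2 DMEM libraries for DIO2 and 1 RPMI library for DIO3. THRA lies at 13.0 to 16.9 and THRB at 0.0275 to 0.0926.

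On the scale of CPM per kilobase, the order of the 8 genes was the same from the first to the fourth place in every library. THRA came first (13.0 to 16.9 over the 6 libraries), followed by NCOR1 (8.18 to 10.6), CRYM (1.57 to 7.72) and SLC16A10 (0.452 to 0.775). None of these ranges overlapped. Below them THRB (0.0275 to 0.0926), DIO2 (0 to 0.372) and DIO3 (0 to 0.0704) overlapped and could not be ordered. THRSP was at 0.

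Genes that thyroid hormone is known to raise or lower gave no call in the main edgeR fit, which has no block. Of 14 raised genes, 13 were tested, 8 had a positive and 5 a negative log2 fold change in DMEM plus fatty acids, 0 passed, and the median was 0.01. Of 3 genes lowered in heart, 3 had a negative log2 fold change, 0 passed, and the median was -0.25. These lists were put together with earlier results of these data known, including those of MYH6 and MYH7. With the replicate block 4 of the 16 passed, HCN2 upward and KLF9, KCNA5 and MYH7 downward. Of all genes tested, 1.36% were called upward there and 3.42% downward. DESeq2's Wald test, without the block, called HCN2 and MYH6 upward (adjusted p 0.0079 and 0.0179). It called KLF9 and MYH7 downward (adjusted p 1.38e-05 and 0.0124), and 1212 of all 16107 genes tested. With no filter on low counts, edgeR called KLF9 (adjusted p 0.0112) and 539 of all genes.

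KLF9, a transcription factor gene that responds directly to thyroid hormone and also to glucocorticoids, had the smallest p. It had 16.1, 5.57 and 5.44 CPM in RPMI plus B27 and 1.63, 1.34 and 1.78 CPM in DMEM plus fatty acids. Every DMEM library was below every RPMI library, as was the case for 12.8% of all genes tested. RPMI plus B27 replicate 1 was about 3 times the other RPMI libraries. The log2 fold change was -2.51 ± 0.48 (SE), with an edgeR adjusted p of 0.0600 without and 0.0289 with the block (1.38e-05 to 0.196 over 12 alternatives, 3 of which called it). Without RPMI plus B27 replicate 1 it was -1.80 with an adjusted p of 0.0585. HCN2, a pacemaker channel, had 10.6, 9.31 and 6.33 CPM against 18.7, 18.5 and 14.1 CPM. It did not overlap either, as for the 12.8% of all genes tested that were higher in every DMEM library. HCN2 had 0.96 ± 0.24 and an edgeR adjusted p of 0.104 (0.0282 with the block, 2 of 12 alternatives calling it).

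MYH6 and MYH7 encode alpha and beta myosin heavy chain. MYH6 had 3500, 5114 and 5649 CPM in RPMI plus B27 and 6754, 10613 and 8570 CPM in DMEM plus fatty acids (0.86 ± 0.27, edgeR adjusted p 0.166, and 0.0797 with the block). MYH7 had 13344, 7538 and 8004 CPM against 6077, 3424 and 2491 CPM (-1.27 ± 0.39, adjusted p 0.163, and 0.0359 with the block). Neither gene overlapped between media, as was the case for 25.6% of all genes tested in either direction. Reads that align to more than 1 place were set aside by the counting, and both genes are alike in sequence, so their levels may be too low. ATP2A2, the calcium pump of the sarcoplasmic reticulum, had 0.36 ± 0.30 (adjusted p 0.575) and its inhibitor PLN -0.25 ± 0.25 (adjusted p 0.658). SLC8A1, the sodium-calcium exchanger, had -0.09 with an adjusted p of 0.862. KCNA5, named after its values were seen, had 35.8, 4.76 and 2.496 CPM against 8.30, 2.00 and 0.888 CPM. It was lower in DMEM in each pair of equal number, and had adjusted p values of 0.412 without and 0.0245 with the block. Without RPMI plus B27 replicate 1 its log2 fold change went from -1.97 to 0.024. That fit had no block and kept DMEM plus fatty acids replicate 1, the library of equal number. HR, a corepressor that thyroid hormone induces in brain, had at most 4 counts in a library and was not tested. RefSeq promoter windows were at hand for 12 of the 14 raised genes, and 2 of their 14 windows held AGGTCA, against 13.8% of all windows.

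**Figure D4:**
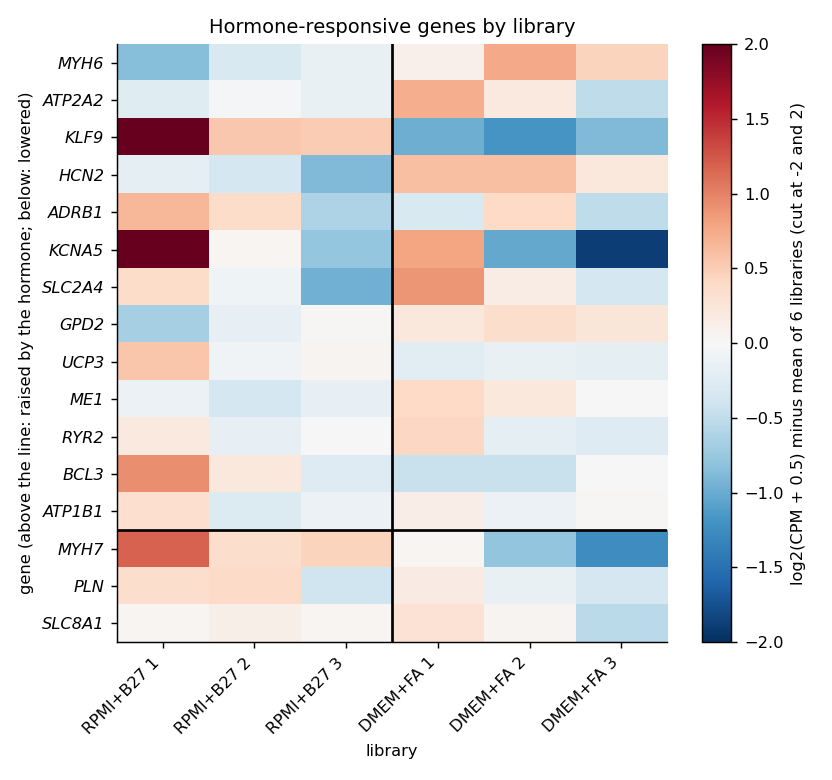
log2(CPM + 0.5) minus the mean of the 6 libraries (colour, red for above and blue for below, limited to 2 in either direction) for hormone-responsive genes (rows, raised above the line and lowered under it) in each library (columns). KLF9 and MYH7 are lower, and MYH6 and HCN2 higher, in all 3 DMEM than in all 3 RPMI libraries, while SLC2A4 and KCNA5 differ as much between replicate numbers as between media.

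Genes of fat synthesis, the setting in which THRSP is known, were expressed throughout although THRSP was at 0. Of 12 listed, 11 were tested and 0 passed, with a median log2 fold change of 0.62 and 10 of 11 positive. FASN (fatty acid synthase) had 245.7, 157.5 and 218.3 CPM in RPMI plus B27 and 948.9, 345.2 and 234.9 CPM in DMEM plus fatty acids, with the high value in DMEM plus fatty acids replicate 1 (1.30 ± 0.49, edgeR adjusted p 0.233). ACACA had 0.62 ± 0.26 (adjusted p 0.277), which is also the median of the list, and FADS1 0.63 ± 0.37 (adjusted p 0.417). Without DMEM plus fatty acids replicate 1 the log2 fold changes were 0.48 for FASN, 0.28 for ACACA and 0.019 for FADS1. MLXIPL, the gene of the carbohydrate-responsive factor ChREBP, had at most 7 counts in a library. Among plasma carriers of the hormone, TTR had 3, 13 and 130 counts in RPMI plus B27 and 0, 3 and 126 in DMEM plus fatty acids, so that replicate 3 was high in both media, and ALB and SERPINA7 were not tested. Hepatic and foregut markers (8 genes, TTR and ALB among them) summed to 15.9 to 117.6 CPM in RPMI plus B27 and 7.83 to 33.8 CPM in DMEM plus fatty acids.

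**Figure D5:**
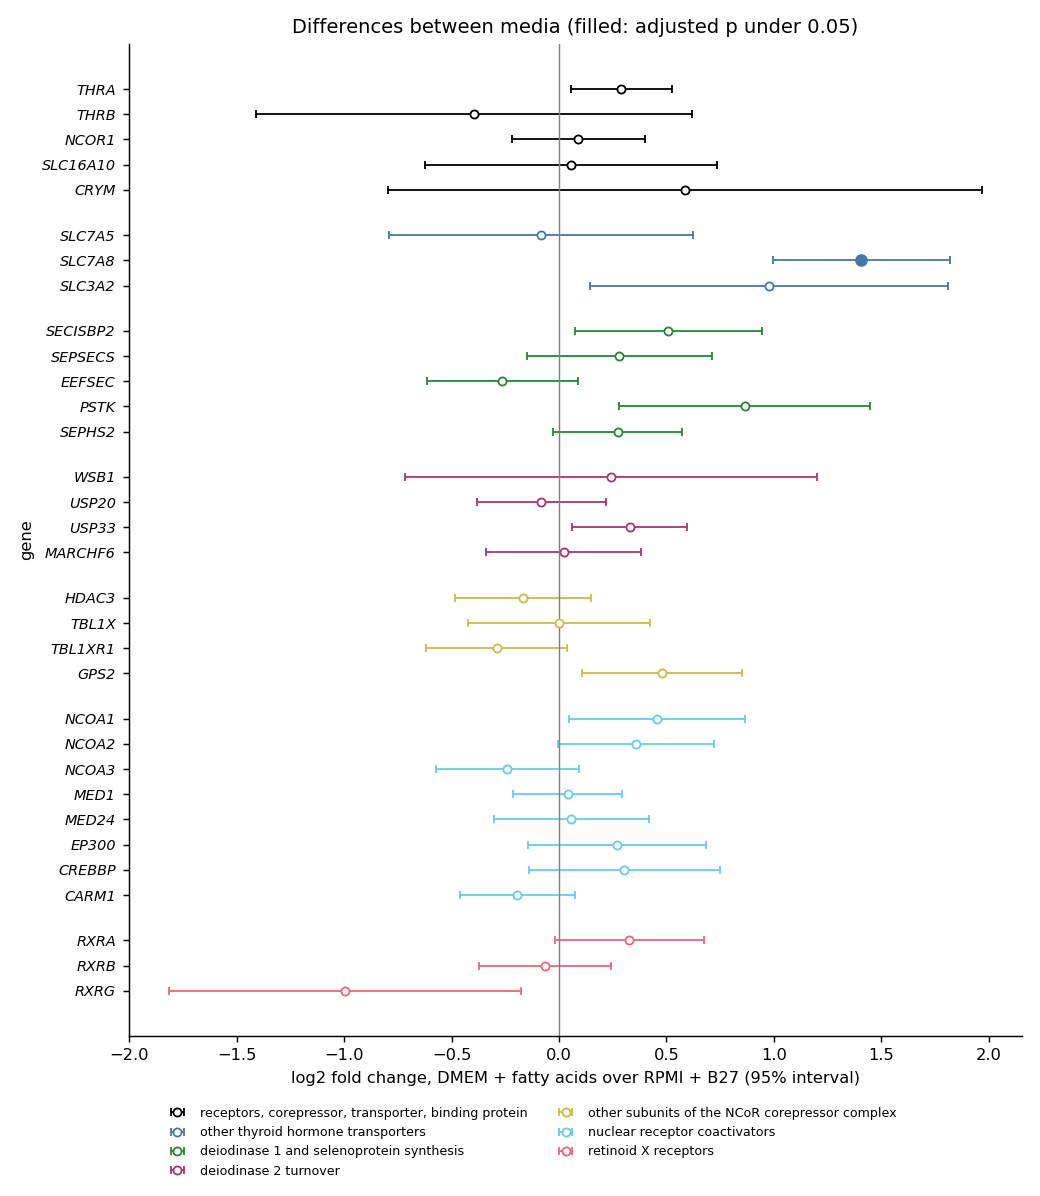
log2 fold change between media (x axis, positive where DMEM plus fatty acids is higher) with its 95% interval for the 5 tested genes of the set and for the tested genes of 6 related lists (y axis, colour for list). The filled point, SLC7A8 at 1.41, is the single gene with an adjusted p under 0.05, and the interval of THRB (-1.41 to 0.62) is among the widest.

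Across all 11 lists, 56 genes other than the 8 were tested and 1 passed, SLC7A8, which compares with 1.36% of all genes tested. With the replicate block 5 passed, 2 upward (SLC7A8 and HCN2) and 3 downward (KLF9, KCNA5 and MYH7), where 4.78% of all genes did.

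The genes whose log2 CPM followed each tested gene most closely over the 6 libraries were listed as a description, among the 10025 or 10026 other genes whose mean reached 10 CPM. The 6 points share their libraries, and all 15 coefficients were 0.984 or higher. Since the genes were picked by these coefficients, the patterns they share with each tested gene follow from that choice. For THRA they were INTS6L, P2RX4 and ACAP2 (Pearson's r 0.995, 0.994 and 0.990). All 3, like THRA itself and 12.8% of all genes tested, had higher CPM in every DMEM than in every RPMI library. For THRB they were SUMO2, PGAP2 and NRP2 (0.996, 0.989 and 0.986), all lowest in DMEM plus fatty acids replicate 1. For NCOR1 they were BRD9, SPTBN1 and DRG1 (0.996, 0.985 and 0.984). For SLC16A10 they were RECQL4, ZBTB2 and FBXO5 (0.994, 0.993 and 0.988), all highest in replicate 3 of each medium. For CRYM they were PPP3CA, DYNC1I2 and PTDSS1 (0.992, 0.992 and 0.990), all highest in replicate 2 of each medium.

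The libraries held 23232324 to 31035389 gene counts each, with 21753 to 23057 genes detected. Cardiomyocyte markers, 12 of 12 tested, summed to 30365 to 37575 CPM in RPMI plus B27 and 24379 to 34179 CPM in DMEM plus fatty acids, and 0 passed. Smooth muscle markers summed to 1571 to 1977 against 316 to 1146 CPM (1 of 6 fell), epicardial markers to 1969 to 2392 against 882 to 1097 CPM (1 of 5 tested fell) and endothelial markers to 29.6 to 239.3 against 114.7 to 463.1 CPM (0 of 2 tested passed). Neural markers summed to at most 23.7 CPM and pluripotency markers to at most 2.15 CPM, with 0 of 2 tested passing in each list. Of the skeletal muscle markers, MYOD1, PAX7 and MYF5 were at 0 in all libraries. The part of these cell types in the values of the 8 genes was not tested. The titles call the replicates biological without saying whether they came from separate differentiations, so p values measure the spread between these libraries.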

How the data were processed

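RNA was sequenced from 3 cultures per medium after column extraction with DNase digestion, and per the labels' protocols the libraries were stranded and made from mRNA. The authors deposited 1 file of unnormalized counts per library, with genes named by symbol. Genome build hg38, STAR and HTSeq are named in the submitters' processing notes. Versions, annotation and strand setting are not given in the sources used here. Summary rows entered neither library sizes nor tests: reads in no feature were 5.44% to 7.57% of all counts, ambiguous reads 3.90% to 4.15% and reads without a unique alignment 3.05% to 4.10%. Groups and replicate numbers came from the sample titles.

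The tool was edgeR 4.0.16 (R 4.3.3). The steps were filterByExpr (minimum count 10, minimum total 15; 16107 genes left), TMM, the quasi-likelihood test over 6 libraries without covariates, and Benjamini-Hochberg adjustment at 0.05. The fitting script was tested on simulated data of independent libraries without replicate pairs. That checks the script and not how well the fit suits these libraries. CPM values are TMM-scaled. Each standard error was derived from the F statistic, and 95% intervals use the fit's degrees of freedom. A gene was too low to read where no library held 10 counts. Positions and exon lengths are from GENCODE release 29 (GRCh38), promoter windows from RefSeq (GRCh38.p14). No protein sequences were used here.

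The 8 genes and all lists were chosen with earlier results of these data known, and some list genes are not reported here. Named genes are the 8, every called list gene or otherwise up to 3 per list with the smallest p, and the 3 genes with the highest Pearson's r to each tested gene (log2 CPM, prior count 2). SLC3A2, SLC7A5, ATP2A2, KCNA5 and genes named as too low were added after their values were seen.

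Deviations from the medium mean correlated across genes at 0.31, 0.43 and 0.37 for libraries of equal replicate number and at -0.24 to -0.14 for others. The numbers were therefore taken to pair the libraries. What a number stands for is not stated in the labels. A fit blocked by replicate number is given where it changes a call. Other alternatives, all without the block, were DESeq2 1.42.0 (size factors and Wald test), scaling by total counts, other filters, and leaving out each library.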

Additional observations from a re-analysis of the deposited data

How the results depend on the processing

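Over all genes, 219 were called (78.5% of them lower in DMEM plus fatty acids). With the replicate block 770 were called, by the DESeq2 Wald test 1212, with no filter on low counts 539, with at least 10 counts in every library 119, and with 1 library left out 3 to 131. Scaling by total counts called 202, of which 63.4% were lower, and moved the median over all genes tested from 0.01 to 0.12 on the log2 scale. For THRA it gave 0.40. Of the 56 list genes, 1 was called, against 5 with the replicate block, 6 by the DESeq2 Wald test, 2 with no filter, and 0 to 1 with a library left out. These alternatives for the lists were added after the data were seen.

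None of the 5 tested genes of the set was called in any of their 12 alternatives (11 for THRB, which did not reach 10 counts in every library). THRA stayed positive (adjusted p 0.118 to 0.433), THRB negative (0.588 to 0.939) and NCOR1 positive (0.419 to 0.98). With the replicate block their log2 fold changes were 0.29, -0.43 and 0.10. The sign of SLC16A10 turned without RPMI plus B27 replicate 1 (-0.01) or 2 (-0.06) and without DMEM plus fatty acids replicate 3 (-0.23), over a range of -0.23 to 0.25 with a library left out. That of CRYM turned without DMEM plus fatty acids replicate 2 (-0.24), over -0.24 to 1.21. Fits with a library left out had no block and kept the library of equal number in the other medium. The THRB share differed by -0.33 percentage points in the main comparison. The mean difference within replicate pairs is the same by arithmetic and adds no support. An exact test that flips the signs of the pair differences gave p = 0.25, the smallest that 3 pairs allow.

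Scaling by total counts turned the sign of USP20 (0.029), RXRB (0.042), SLC8A1 (0.0051) and SLC7A5 (0.0070). With 1 library left out, signs also turned within the ranges of TTR (-4.94 to 1.99), USP20 (-0.14 to 0.018), WSB1 (-0.073 to 0.79), RXRB (-0.15 to 0.031), SLC8A1 (-0.28 to 0.11), NR1D1 (-0.67 to 0.038), SLC7A5 (-0.37 to 0.17) and KCNA5 (-3.31 to 0.024). The cause was not tested. Depth limits THRB, DIO2 and DIO3, which had at most 27, 74 and 5 counts in a library.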
